A study of Mus musculus with 4 samples.

Results

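The genes described here mark the blood vessels of the embryonic mouse cortex: endothelial cells, the pericytes around them, and the transporters and junctions of the blood-brain barrier. They were chosen by name, with earlier results of these data known, as rows of the deposited count table. Of the 54 genes named, 51 had a row among the 13289 genes of that table. Ly6c1, Slco1a4 and Esm1 were not analysed here. All 51 passed the filter on low counts. They were ordered by role into 28 endothelial identity genes, 11 angiogenic receptors and ligands, 6 barrier transporters and 6 mural genes.

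RNA-seq of polyadenylated RNA was done on cerebral cortex of mouse embryos at embryonic day 15 (E15), with 2 control libraries (titled WT) and 2 Lhx2 cKO libraries, in which Lhx2, a LIM-homeodomain factor of cortical progenitors, was the target of a conditional knockout. The allele, the Cre driver, the strain, the litters and sex are not given in the sources used here, nor is whether the libraries of a group came from separate embryos, so the p-values measure the spread between these libraries, which may be technical. Total counts ranged from 22294237 to 24609627 per library, and the 51 genes took 0.112% and 0.124% of them in control and 0.135% and 0.145% in Lhx2 cKO. Levels are CPM, counts scaled to each library's total over the genes analysed here and adjusted with TMM. Lhx2 itself measured 316 and 287 CPM in control and 239 and 247 CPM in Lhx2 cKO (-0.31 on the log2 scale with SE 0.098, and adjusted p 0.0191 by the quasi-likelihood test of edgeR), without overlap. Which part of the transcript the deletion removes is not given in the sources used here, so these gene-level counts are a limited check of the labels.

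Vessels enter the cortex from the surface and sprout toward the ventricle. Neural progenitors release VEGF, which acts on endothelial receptors such as Kdr, and Wnt7 ligands, which act through Reck and Adgra2 on endothelial cells to turn on barrier genes. A brain endothelial cell seals itself with tight junctions, suppresses vesicle transport, and carries nutrients and hormones across with dedicated transporters, while pericytes recruited by Pdgfb through Pdgfrb sit on its outer wall.

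For 4 of the genes the stretch around the transcription start is shown, because each is the called gene with the smallest p of its role among those with an entry in the promoter table. The sequences are RefSeq promoters of build GRCm38.p6, 250 bases before to 50 bases after the start, 5′ to 3′ on the gene's strand. Capitals mark matches to AGGAAG or CCGGAA (letters bound by ETS factors), AACAAT (SOX factors) or TAATTA (homeodomain factors) on either strand.
Cldn5, chr16:18776597-18776896, + strand: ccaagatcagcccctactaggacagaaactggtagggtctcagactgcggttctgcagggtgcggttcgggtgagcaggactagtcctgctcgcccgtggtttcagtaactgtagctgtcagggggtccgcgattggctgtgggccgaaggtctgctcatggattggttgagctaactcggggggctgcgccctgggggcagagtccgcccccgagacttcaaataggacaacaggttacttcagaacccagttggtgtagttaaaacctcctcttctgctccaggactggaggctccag
Kdr, chr5:75978406-75978705, - strand: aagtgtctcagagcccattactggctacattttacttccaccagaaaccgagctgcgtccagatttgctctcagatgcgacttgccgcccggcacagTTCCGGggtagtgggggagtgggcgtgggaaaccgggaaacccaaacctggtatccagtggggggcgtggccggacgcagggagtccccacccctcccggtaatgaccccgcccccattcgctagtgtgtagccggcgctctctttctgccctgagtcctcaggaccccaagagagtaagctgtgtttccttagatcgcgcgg
Slco1c1, chr6:141524104-141524403, + strand: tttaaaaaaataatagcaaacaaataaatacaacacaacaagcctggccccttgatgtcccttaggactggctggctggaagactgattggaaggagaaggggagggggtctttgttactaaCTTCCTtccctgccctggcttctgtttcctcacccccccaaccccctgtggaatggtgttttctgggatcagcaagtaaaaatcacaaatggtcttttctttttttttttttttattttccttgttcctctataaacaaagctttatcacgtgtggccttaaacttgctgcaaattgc
Rgs5, chr1:169655251-169655550, + strand: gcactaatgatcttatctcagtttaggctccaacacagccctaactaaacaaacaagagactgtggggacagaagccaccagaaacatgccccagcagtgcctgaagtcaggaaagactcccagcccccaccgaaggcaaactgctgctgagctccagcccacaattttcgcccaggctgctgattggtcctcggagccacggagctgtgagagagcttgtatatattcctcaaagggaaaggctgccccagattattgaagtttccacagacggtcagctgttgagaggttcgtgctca
The Cldn5 and Rgs5 windows held 0 matches, and the Kdr and Slco1c1 windows held 1 match each, of CCGGAA in Kdr (TTCCGG as printed) and of AGGAAG in Slco1c1 (CTTCCT as printed). Entries were found for 31 of the 51 genes, with 40 windows in all. AGGAAG was in 20 of these windows (50%) and in 35.4% of all 32851 windows. CCGGAA was in 3 (7.5%) against 14.9%, AACAAT in 3 (7.5%) against 10.7%, and TAATTA in 2 (5%) against 5.29%. A match here is a description of letters and not a binding site.

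Many of the endothelial genes rose in Lhx2 cKO. All log2 differences are log2 fold changes of Lhx2 cKO over control. A gene with an adjusted p under 0.05 in edgeR's quasi-likelihood test, adjusted over the 13288 genes tested, is said to be called. Of the 51 genes, 21 were called higher, 1 (Rgs5, a pericyte gene) was called lower, and 29 were not called. Over all genes tested 11.6% were called higher and 9.17% lower. The median log2 fold change was 0.39 over the 51 genes and 0.003 over all genes tested. Leaving the mural genes aside, 41 of 45 genes had a positive log2 fold change. Rises among called genes ranged from 0.31 to 1.35 on the log2 scale, and 12 called genes changed at least 1.5-fold. Both Lhx2 cKO libraries lay above both control libraries for 32 of the 51 genes (62.7%), against 30.2% of all genes tested. Since these are bulk samples, more cells of a type and more RNA per cell cannot be told apart. In the authors' deposited table the same 22 genes have an adjusted p under 0.05, while the authors' own mark there gives 11 of the 51 genes as up, 0 as down and 40 as NS.

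**Figure D1:**
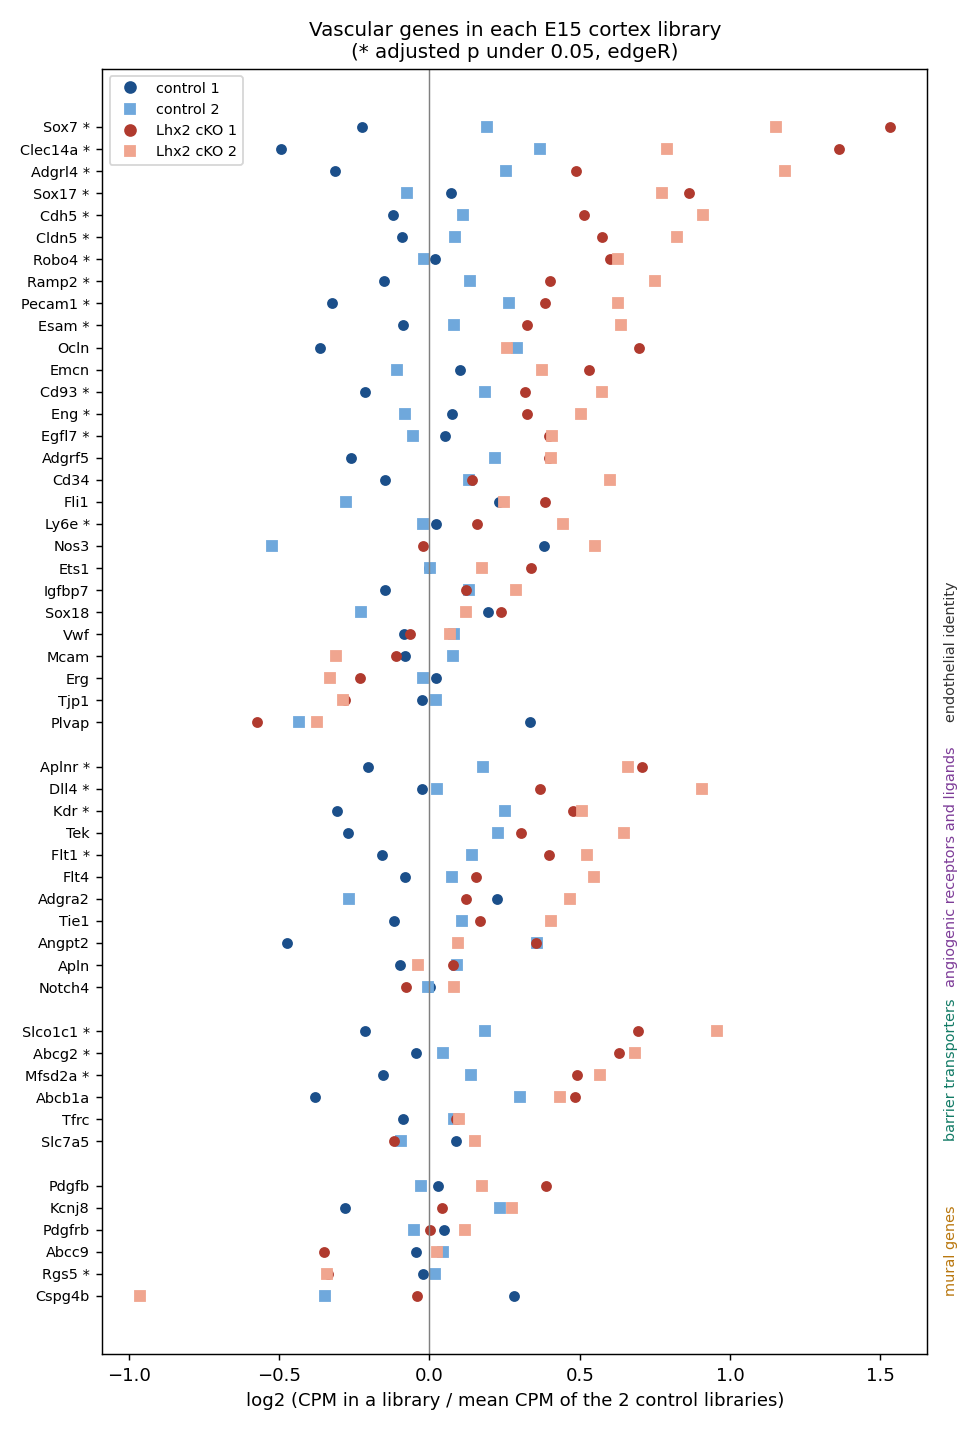
Each row is a gene, grouped by role, and each point is 1 library, placed at the log2 ratio of its CPM to the mean CPM of the 2 control libraries. Lhx2 cKO libraries (red shades) lie to the right of control libraries (blue shades) for 32 of 51 genes. Among mural genes they lie to the right for Pdgfb and to the left for Rgs5. For Pdgfrb, Kcnj8, Abcc9 and Cspg4b the groups overlap.

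The libraries within a group differed for these genes. Control 1 was below control 2 for 34 of the 51 genes (66.7%), against 50.2% of all genes tested, and Lhx2 cKO 1 was below Lhx2 cKO 2 for 33 of them, against 52.1%. The number called higher was 11 without control 1, 21 without control 2, 20 without Lhx2 cKO 1 and 9 without Lhx2 cKO 2. In each of these fits 1 group has a single library, whose spread is assumed to be like that of the other group. Cldn5, Cdh5, Aplnr, Mfsd2a, Slco1c1 and Abcg2, 6 of the 22 called genes, were called in all 4 of these fits.

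**Figure D2:**
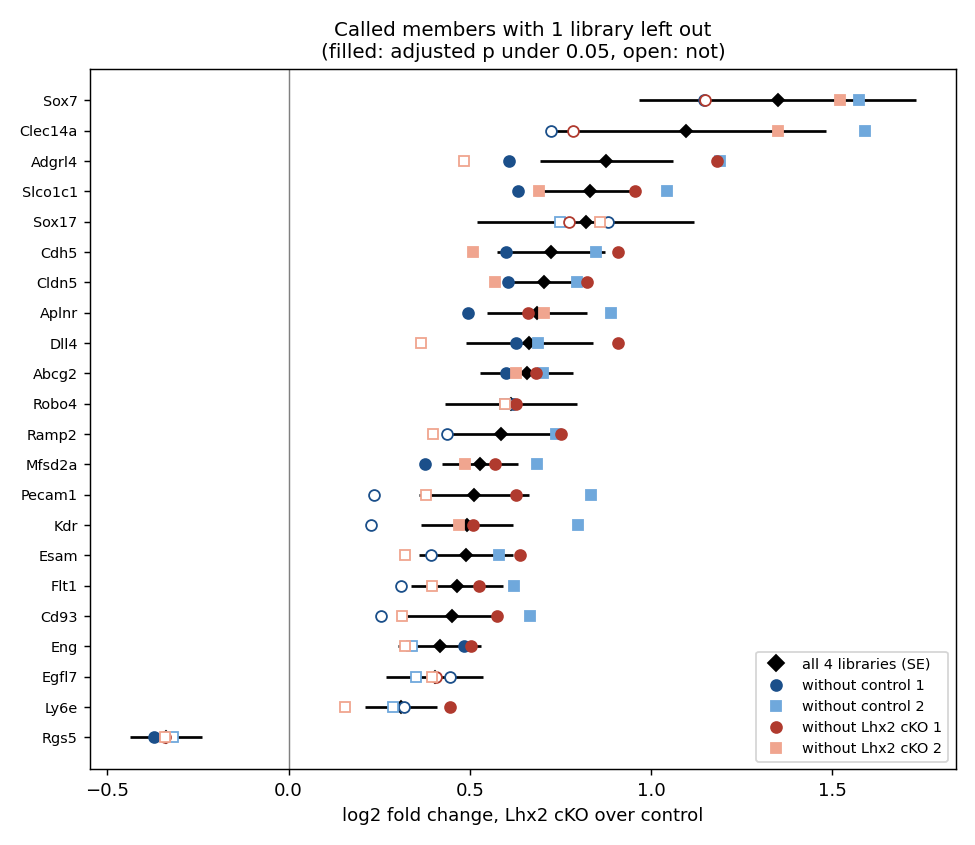
For each of the 22 called genes, the black diamond is the log2 fold change with all 4 libraries (bar is SE) and the coloured points are the estimates with 1 library left out, filled where the adjusted p stayed under 0.05. All points of Cldn5, Cdh5, Aplnr, Mfsd2a, Slco1c1 and Abcg2 are filled, and none of those of Sox17 and Egfl7.

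Endothelial identity genes comprised junction genes, transcription factors, and surface or secreted proteins. Of the 28 tested, 14 were called higher and 0 lower, with a median log2 fold change of 0.41. Cldn5, the main claudin of brain endothelial tight junctions, was at 63.5 and 71.8 CPM in control and at 100.7 and 120 CPM in Lhx2 cKO. Both Lhx2 cKO libraries were well above both controls, with a log2 difference of 0.70 (SE 0.102, adjusted p 1.09e-06). Cdh5, the cadherin of endothelial adherens junctions, was at 12.2 and 14.4 CPM in control and at 19.0 and 25.03 CPM in Lhx2 cKO. Its groups did not overlap, and its log2 fold change was 0.72 (SE 0.149, adjusted p 2.99e-04).

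Pecam1, an adhesion molecule of endothelial contacts, was at 12.6 and 18.9 CPM in control and at 20.5 and 24.3 CPM in Lhx2 cKO, a log2 difference of 0.51 (SE 0.151, adjusted p 0.0120). Control 2 came close to Lhx2 cKO 1, and without control 1 the log2 fold change was 0.24 with an adjusted p of 0.41. Without Lhx2 cKO 2 the adjusted p of Pecam1 was 0.151. Esam, another endothelial adhesion molecule, was at 18.2 and 20.4 CPM in control and at 24.2 and 30.0 CPM in Lhx2 cKO, a log2 difference of 0.49 (SE 0.13, adjusted p 0.0051), and its call was lost without control 1 (0.0847) and without Lhx2 cKO 2 (0.207). The other junction genes were not called. Ocln, the tight junction protein occludin, was measured at 0.99 and 1.56 CPM in control and 2.07 and 1.52 CPM in Lhx2 cKO, so that the groups overlapped. Tjp1, a junction scaffold that neural progenitors also use, was at 30.0 and 31.0 CPM in control and at 25.1 and 24.99 CPM in Lhx2 cKO, opposite in direction to Cldn5, with an adjusted p of 0.0761.

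Among transcription factors, SoxF and ETS genes direct the endothelial programme. Sox7 was at 0.99 and 1.32 CPM in control and at 3.34 and 2.57 CPM in Lhx2 cKO, the largest log2 fold change of the 51 genes at 1.35 (SE 0.382, adjusted p 0.00871). These are low levels: Sox7 had 24 and 33 counts in control and 76 and 59 in Lhx2 cKO, and the call was lost without control 1 (0.0795), without Lhx2 cKO 1 (0.0911) and with a minimum mean count of 50, which removed the gene. Sox17 was at 2.43 and 2.20 CPM in control and at 4.22 and 3.96 CPM in Lhx2 cKO, with groups well apart. Its log2 fold change was 0.82 (SE 0.299) and its adjusted p 0.0450, the nearest of the called genes to the threshold. The call was lost when any 1 library was left out (adjusted p 0.126 to 0.178) and in DESeq2 (0.0931), and Sox17 shares exon bases with Gm37587 on the other strand. Sox18, the third SoxF gene, was at 3.75 and 2.80 CPM in control and at 3.87 and 3.57 CPM in Lhx2 cKO, where the groups overlapped (log2 fold change 0.18, SE 0.287). Per length, the ratio of Sox17 to Sox18 was 0.22 and 0.267 in control, against 0.37 and 0.377 in Lhx2 cKO. None of the 3 ETS factors among the 51 genes was called: log2 fold changes were 0.26 for Ets1 (SE 0.16), 0.32 for Fli1 (SE 0.383) and -0.28 for Erg (SE 0.337), with adjusted p between 0.273 and 0.619. Fli1 and Erg had 34 to 66 counts per library, so differences of the size seen in Sox17 were measured with wide errors.

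Of the 16 surface and secreted genes tested, 8 were called higher and 0 lower. Adgrl4, an adhesion G protein-coupled receptor of sprouting endothelium, was at 7.79 and 11.6 CPM in control and at 13.6 and 21.98 CPM in Lhx2 cKO. The libraries of each group lay far apart but did not cross, and the log2 fold change was 0.88 (SE 0.183, adjusted p 3.82e-04), or 0.48 with an adjusted p of 0.118 without Lhx2 cKO 2. Clec14a, an endothelial C-type lectin, had 23 and 43 counts in control and 78 and 53 in Lhx2 cKO, a log2 difference of 1.10 (SE 0.386, adjusted p 0.0370). It lost its call without control 1 (0.308), without Lhx2 cKO 1 (0.287) and in DESeq2 (0.0905), and was removed by a minimum mean count of 50.

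Robo4, an endothelial guidance-type receptor that stabilises vessels, was at 7.01 and 6.84 CPM in control and at 10.5 and 10.7 CPM in Lhx2 cKO, a log2 difference of 0.61 (SE 0.182, adjusted p 0.0123). Its libraries agreed closely within groups, and its estimate stayed between 0.60 and 0.63 with any 1 library left out, but its call was lost without control 1 (0.0568), without control 2 (0.0558) and without Lhx2 cKO 2 (0.0783). Ramp2, which pairs with the calcitonin receptor-like receptor to form an adrenomedullin receptor, was at 14.4 and 17.5 CPM in control and at 21.1 and 26.8 CPM in Lhx2 cKO (log2 fold change 0.59, SE 0.141, adjusted p 0.00196). Its call was lost without control 1 (0.0649) and without Lhx2 cKO 2 (0.122), and it shares exon bases with Vps25 on the same strand, so its counts are uncertain. Cd93, a transmembrane lectin of angiogenic endothelium, was at 21.5 and 28.4 CPM in control and at 31.1 and 37.2 CPM in Lhx2 cKO (0.45, SE 0.125, adjusted p 0.0070). Control 2 was close to Lhx2 cKO 1, and without control 1 its log2 fold change was 0.26 with an adjusted p of 0.265, and without Lhx2 cKO 2 the adjusted p was 0.167.

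Eng, a co-receptor for TGF-beta and BMP ligands, was at 27.5 and 24.6 CPM in control and at 32.6 and 37.0 CPM in Lhx2 cKO, a log2 difference of 0.42 (SE 0.115, adjusted p 0.00707). Egfl7, a secreted endothelial matrix protein whose gene hosts Mir126a, was at 17.5 and 16.3 CPM in control and at 22.3 and 22.4 CPM in Lhx2 cKO, a log2 difference of 0.40 (SE 0.133, adjusted p 0.0254). The groups did not overlap for either gene, but the call of Eng was lost without control 2 (0.0821) and without Lhx2 cKO 2 (0.148), and that of Egfl7 without any 1 library (0.0683 to 0.152). Eng shares exon bases with Fpgs, and Egfl7 with Agpat2, on the other strand. Ly6e, a membrane-anchored surface protein that interferon is known to induce, was at 92.1 and 89.3 CPM in control and at 101.3 and 123 CPM in Lhx2 cKO, a log2 difference of 0.31 (SE 0.1, adjusted p 0.0218). Much of that rise lay in Lhx2 cKO 2, without which the log2 fold change was 0.16. The call of Ly6e was lost without control 1, without control 2 and without Lhx2 cKO 2. Of 13 interferon-stimulated genes of a fixed list, 12 were called higher and 0 lower, against 11.6% and 9.17% over all genes tested. Their summed level was 79.8 and 90.1 CPM in control and 191 and 180 CPM in Lhx2 cKO. Their part in the Ly6e result was not tested.

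Exon bases are also shared with genes on the other strand by Nos3, Igfbp7, Cd34, Mcam, Dll4, Adgra2, Abcb1a and Abcc9; whether the counting used strand is not given in the sources used here, so counts of all these genes are uncertain.

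The remaining surface and secreted genes were not called. Adgrf5 (log2 fold change 0.40, adjusted p 0.0530) was the nearest outside the threshold and was called with limma-voom (0.0419), with the replicate number as a block (0.0386) and without control 2 (0.00498). Emcn, a sialomucin of veins and capillaries, had a log2 difference of 0.45 (SE 0.275), Cd34 0.39 (SE 0.159), Nos3 0.29 (SE 0.236) and Igfbp7 0.21 (SE 0.107), with adjusted p from 0.0776 to 0.417. Of these, Cd34 was called without control 2 (0.0362) and without Lhx2 cKO 1 (0.00863), Igfbp7 without control 2 (0.0384) and Nos3 without control 1 (0.0387). Vwf, a clotting factor stored by endothelial cells of larger vessels, was at 11.3 and 12.7 CPM in control and at 11.5 and 12.6 CPM in Lhx2 cKO, at a log2 difference of 0.004 (SE 0.161). Mcam, an adhesion molecule of both endothelial and mural cells, was at 40.7 and 45.5 CPM in control and 39.9 and 34.7 CPM in Lhx2 cKO (adjusted p 0.176). Plvap, a protein of fenestrated and immature vessels that the barrier normally silences, was at 5.11 and 3.001 CPM in control and at 2.72 and 3.13 CPM in Lhx2 cKO. Its log2 fold change of -0.47 (SE 0.298, adjusted p 0.289) did not pass the test, and control 2 lay between the Lhx2 cKO libraries. Per length, the ratio of Plvap to Cldn5 was 0.0574 and 0.0298 in control, against 0.0193 and 0.0187 in Lhx2 cKO. Cldn5 itself was called higher, so this ratio can fall without a change in Plvap.

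Receptors and ligands of angiogenesis followed the identity genes in part. Of 11 tested, 4 were called higher and 0 lower, with a median log2 fold change of 0.37. Aplnr, the apelin receptor of venous and sprouting endothelium, was at 13.6 and 17.7 CPM in control and at 25.5 and 24.7 CPM in Lhx2 cKO, a log2 difference of 0.68 (SE 0.138, adjusted p 2.34e-04). Its ligand Apln, made by tip cells, was at 6.19 and 7.04 CPM in control and 6.99 and 6.44 CPM in Lhx2 cKO, fully overlapping, at a log2 difference of 0.02 (SE 0.206). Dll4, the Notch ligand of tip cells and arteries, was at 8.66 and 8.96 CPM in control and at 11.4 and 16.5 CPM in Lhx2 cKO, a log2 difference of 0.66 (SE 0.175, adjusted p 0.00468). Most of that rise lay in Lhx2 cKO 2, without which it was 0.37 with an adjusted p of 0.328. Notch4, an endothelial Notch receptor, stood at 22.6 and 22.4 CPM in control and 21.3 and 23.8 CPM in Lhx2 cKO (log2 fold change 0.004, SE 0.126).

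The VEGF receptors lay in 1 direction. Kdr, the main signalling receptor for VEGF-A, was at 21.03 and 31.0 CPM in control and at 36.2 and 37.0 CPM in Lhx2 cKO, a log2 difference of 0.49 (SE 0.127, adjusted p 0.00381). The Lhx2 cKO libraries agreed and the controls did not: without control 1 the log2 fold change was 0.23 with an adjusted p of 0.316. Flt1, a receptor that also acts as a VEGF trap, was at 18.2 and 22.4 CPM in control and at 26.7 and 29.2 CPM in Lhx2 cKO (0.46, SE 0.127, adjusted p 0.00674), and its call was lost without control 1 (0.2) and without Lhx2 cKO 2 (0.0813). Flt4, the receptor for VEGF-C, was not called (0.37, SE 0.194, adjusted p 0.189). Neither angiopoietin receptor gene was called: Tek, which binds angiopoietins, was at 0.49 (SE 0.222, adjusted p 0.120, or 0.0430 without control 2), and Tie1, its partner, at 0.29 (SE 0.113, adjusted p 0.0610). Tie1 was called with the replicate number as a block (0.0448), without control 2 (0.0236) and without Lhx2 cKO 1 (0.0204). Angpt2, a ligand of Tek from sprouting vessels, had 42 and 77 counts in control and 70 and 59 in Lhx2 cKO. Adgra2, the endothelial co-receptor for Wnt7 ligands, was at 17.4 and 12.4 CPM in control and 16.2 and 20.6 CPM in Lhx2 cKO, with overlapping groups (adjusted p 0.172, or 0.0275 without control 1 and 0.0445 without Lhx2 cKO 1).

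**Figure D3:**
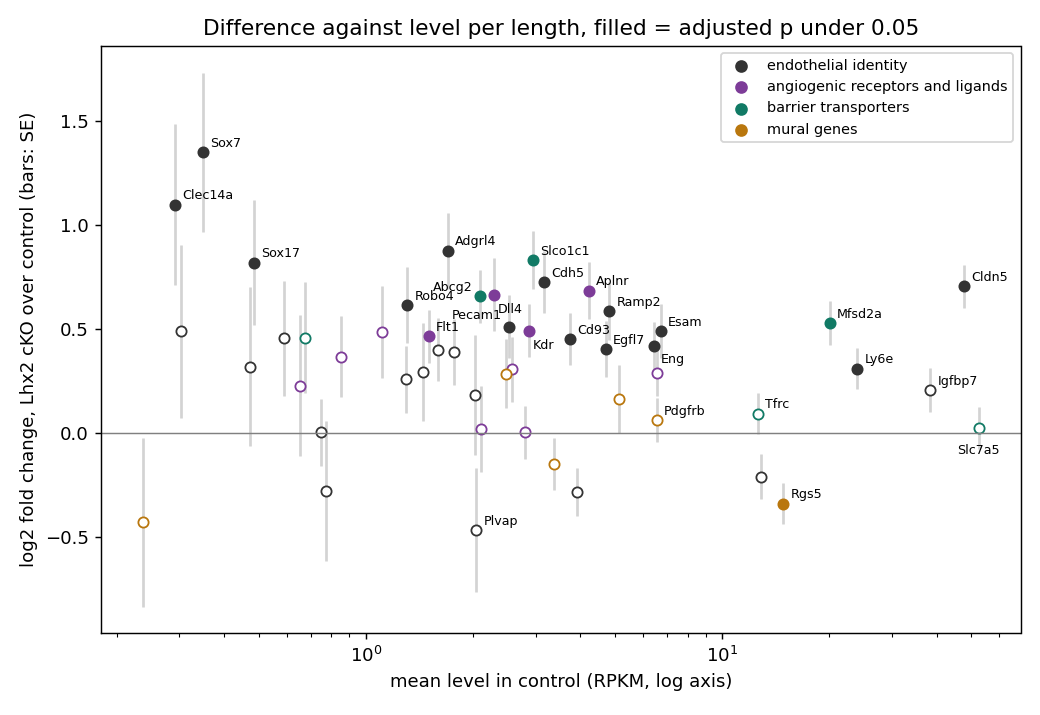
Each point is 1 of the 51 genes, with its mean control level per length (RPKM, log axis) against its log2 fold change of Lhx2 cKO over control (bars are SE), filled where the adjusted p was under 0.05. The largest changes, those of Sox7 and Clec14a, belong to genes at 0.35 and 0.292 RPKM, while Cldn5 at 47.8 RPKM had a log2 fold change of 0.70.

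Barrier transporters split into 3 that rose and 3 that were not called, with a median log2 fold change of 0.49 over the 6. Slco1c1, which carries thyroid hormone and organic anions, was at 13.2 and 17.4 CPM in control and at 24.7 and 29.6 CPM in Lhx2 cKO. Its log2 fold change of 0.83 (SE 0.14, adjusted p 1.56e-05) was the largest of the 6. Abcg2, an efflux pump, was at 16.5 and 17.6 CPM in control and at 26.4 and 27.3 CPM in Lhx2 cKO (0.66, SE 0.128, adjusted p 1.49e-04), with little spread within either group. Mfsd2a, which imports lysophosphatidylcholine lipids and restrains vesicle transport in brain endothelium, was at 40.5 and 49.7 CPM in control and at 63.3 and 66.9 CPM in Lhx2 cKO (0.53, SE 0.105, adjusted p 2.02e-04). All 3 kept their calls with any 1 library left out.

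Abcb1a, a gene for P-glycoprotein and the best-known efflux pump of the barrier, had 69 and 114 counts in control and 118 and 115 in Lhx2 cKO. At a log2 difference of 0.46 (SE 0.266, adjusted p 0.236) it was not called, and its reads can be shared with its close copy Abcb1b. Tfrc, the transferrin receptor, was at 73.5 and 82.5 CPM in control and at 82.9 and 83.6 CPM in Lhx2 cKO (0.09, SE 0.098). Slc7a5, the carrier of large neutral amino acids, was at 207 and 182 CPM in control and at 180 and 216 CPM in Lhx2 cKO (0.02, SE 0.101), with overlapping groups. Both of these genes are also expressed outside vessels, Tfrc in red cell precursors and both in dividing cells. By the mean of the control libraries Slc7a5 was the most abundant of the 51 genes per length, at 52.5 RPKM, ahead of Cldn5 (47.8), Igfbp7 (38.4), Ly6e (24.0) and Mfsd2a (20.04), although in control 2 alone Cldn5 was ahead of Slc7a5. In Lhx2 cKO Cldn5 came first at 77.8 RPKM and Slc7a5 next at 53.4.

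Of the 6 mural genes tested, 0 were called higher and 1 lower in edgeR, and 1 of the 6 had an unadjusted p under 0.05. With 6 genes, these counts are near the 11.6% and 9.17% over all genes tested, and the difference between mural and endothelial counts was not tested. The median log2 fold change was -0.04, which became 0.07 with a minimum mean count of 50 or without Lhx2 cKO 1. Rgs5, a regulator of G protein signalling that marks brain pericytes, was at 66.6 and 68.5 CPM in control and at 53.5 and 53.4 CPM in Lhx2 cKO. The libraries of each group were nearly equal, and the log2 fold change was -0.34 (SE 0.099, adjusted p 0.0108). Its estimate stayed between -0.37 and -0.32 with 1 library left out, but the adjusted p was 0.0541 without control 2 and 0.0638 without Lhx2 cKO 2.

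Pdgfrb, the receptor through which pericytes are recruited, was at 37.2 and 34.7 CPM in control and at 36.0 and 39.1 CPM in Lhx2 cKO, so that the groups overlapped (log2 fold change 0.06, SE 0.107, adjusted p 0.739). Pdgfb, its endothelial ligand, was at 10.5 and 10.1 CPM in control and at 13.4 and 11.6 CPM in Lhx2 cKO (0.29, SE 0.165, adjusted p 0.231). Kcnj8 and Abcc9 encode the channel and the sulfonylurea-receptor subunits of the pericyte potassium channel. Their log2 fold changes were 0.16 (SE 0.163) and -0.15 (SE 0.125). Cspg4b is a separate gene from the pericyte proteoglycan gene Cspg4, had 24 to 60 counts per library and was not called (-0.43, SE 0.404).

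Within each library, the level of mural genes was set against that of the identity genes. The geometric mean per length of the 6 mural genes, which include the endothelial ligand Pdgfb and Cspg4b, was 1.46 and 1.35 times that of the 28 identity genes in control and 1.06 and 0.958 times in Lhx2 cKO. Without Pdgfb and Cspg4b, a choice made after seeing the data, it was 2.81 and 2.91 times in control and 1.99 and 2.14 times in Lhx2 cKO, so that the Lhx2 cKO libraries were lower either way. The same ratio was 2.60 and 2.89 in control, against 2.79 and 2.84 in Lhx2 cKO for the transporters, and 0.857 and 0.956 against 0.861 and 0.911 for the angiogenic genes, so those ratios overlapped between groups. Per length, Rgs5 over Cldn5 was 0.327 and 0.297 in control, against 0.165 and 0.139 in Lhx2 cKO, and Pdgfrb over Cdh5 was 2.33 and 1.85 against 1.45 and 1.20. Cldn5 and Cdh5 were both called higher, and Rgs5 was the only one of the 6 mural genes called lower. The ratios of these pairs in part restate those calls. With 2 libraries against 2, a two-sided exact permutation test cannot go below 0.333, so these ratios are given as values without a test.

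**Figure D4:**
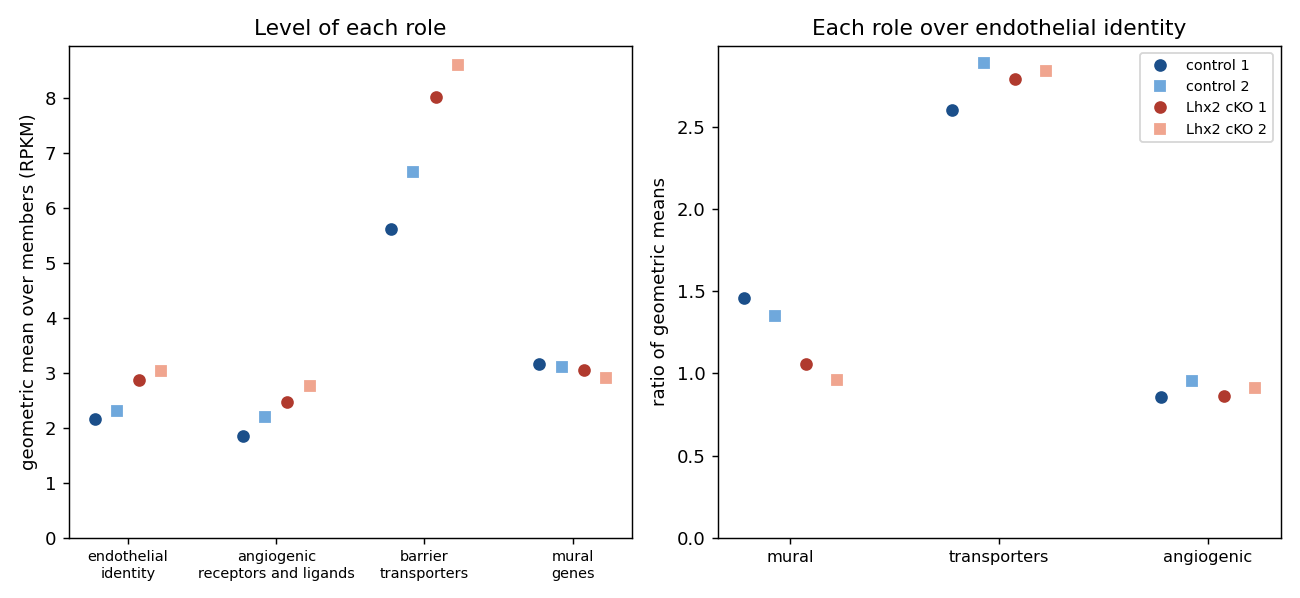
Left, the geometric mean level per length (RPKM) of the genes of each role in each library; right, the ratio of that mean to the mean of the endothelial identity genes. Lhx2 cKO libraries lie above control libraries in the first 3 roles, mural genes stay between 2.91 and 3.16 RPKM, and the mural ratio goes from 1.46 and 1.35 in control to 1.06 and 0.958 in Lhx2 cKO.

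Further genes of the same cells and pathways had calls in both directions. Their lists were written from general knowledge, but with earlier results of these data known. Of 28 other brain endothelial genes, 5 (17.9%) were called higher and 3 lower, with a median log2 fold change of 0.06, so this list lay closer to the 11.6% called higher over all genes than the identity genes did. Slc38a5, an amino acid transporter of brain endothelium, was at 9.03 and 10.9 CPM in control and at 18.7 and 22.5 CPM in Lhx2 cKO (1.05, SE 0.154, adjusted p 1.51e-06). Itm2a (0.70) and Podxl (0.52) were also called higher, as was the ETS factor Ets2 (0.50, SE 0.179, adjusted p 0.0408), which was named after its values were seen. Palmd was called lower at -1.78 (SE 0.119, adjusted p 2.50e-15). Without control 1, or without Lhx2 cKO 2, 4 of these genes were called in place of 8.

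Of 15 other mural genes, 2 (13.3%) were called higher and 1 lower, again near the share over all genes. Cspg4, a proteoglycan of pericytes and of oligodendrocyte precursors, was at 26.5 and 31.2 CPM in control and at 37.5 and 37.6 CPM in Lhx2 cKO (0.38, SE 0.112, adjusted p 0.0112), opposite in direction to Rgs5. Vtn (0.29) was called higher and Zic1 (-0.56) lower, and 1 of these genes was called without control 1, without Lhx2 cKO 1 or without Lhx2 cKO 2. Acta2, Tagln, Myh11, Tbx18 and Des were not analysed here, so arterial smooth muscle is hardly covered.

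Signals that reach vessels had calls in both directions. Of 24 genes of VEGF, angiopoietin and other vascular signals, 5 (20.8%) were called higher and 5 lower, with a median of 0.09. Over all genes tested 11.6% were called higher and 9.17% lower. The 4 called genes with the smallest p were all lower: Cxcl12, a chemokine that guides endothelial and neural cells, at -1.03 (SE 0.113, adjusted p 2.61e-09), Nrp2 at -0.86, Notch1 at -0.72 and Tgfb2 at -1.09. The 5 called higher, named after their values were seen, were Jag1 (0.71), Angpt1 (1.23), Tgfbr2 (0.70), Cxcr4 (0.38) and Plxnd1 (0.34). Angpt1 had 26 to 72 counts per library. Without control 1, 6 genes of this list were called in place of 10. Vegfa, the principal ligand of Kdr, named here for that role and after its values were seen, was at 64.3 and 70.2 CPM in control and at 74.1 and 62.9 CPM in Lhx2 cKO, with overlapping groups. Of 14 genes of the Wnt7, Norrin and Reck signalling list, 2 (14.3%) were called higher and 2 lower, with a median of 0.05. These counts are near the shares over all genes. The ligands went in opposite directions: Wnt7a was at 42.9 and 47.5 CPM in control and at 59.6 and 68.3 CPM in Lhx2 cKO (0.50, SE 0.104, adjusted p 3.49e-04). Wnt7b was at 625 and 527 CPM in control and at 298 and 354 CPM in Lhx2 cKO (-0.82, SE 0.109, adjusted p 1.69e-07). Apcdd1, a target and inhibitor of Wnt signalling found in brain endothelium, was called higher at 0.78, and the Wnt co-receptor gene Lrp5 lower at -0.53. Axin2 (0.09), Lef1 (0.26) and Tcf7 (-0.35) of the same list, named after their values were seen, were not called and had overlapping groups. Many genes of these lists are also expressed by neurons and progenitors, so their values are not those of vessels alone. Palmd, Notch1, Tgfb2, Wnt7b and Zic1 share exon bases with genes on the other strand, so their counts are uncertain in the same way.

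Of 11 vascular basement membrane genes, 2 (18.2%) were called higher and 3 lower, against 11.6% and 9.17% of all genes tested. Sparc, a matrix glycoprotein, was called higher at 0.83 (SE 0.101, adjusted p 2.59e-08) and Lama4, the laminin chain of vessel walls, at 0.39 (SE 0.105, adjusted p 0.00543), while Lama5 (-0.81) and Lamb1 (-0.64) were called lower. Of 9 arterial and venous genes, 1 (11.1%) was called higher, Slc38a5, and 3 lower, Nrp2, Hey1 (-0.62) and Unc5b (-0.39). The share called higher is near that over all genes. Slc38a5 is also counted among the other brain endothelial genes. Nrp2 and Unc5b are also counted among the VEGF and other vascular signals.

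Lists of markers of other cell types also had calls, against 11.6% called higher and 9.17% lower over all genes tested. The part of these cell types in the vascular results was not tested. For microglia and macrophages 10 of 12 markers were called higher and 1 lower. The smallest p were those of C1qb (log2 fold change 1.35) and C1qc (1.402). Tmem119 was the 1 called lower (-1.04, SE 0.264, adjusted p 0.0032), and P2ry12 was not called (0.40, SE 0.202). The summed level of the 12 markers was 127 and 126 CPM in control and 246 and 272 CPM in Lhx2 cKO. Red blood cell markers went the other way, with 1 of 7 called higher and 5 lower and summed levels of 3178 and 2344 CPM in control and 2134 and 1903 CPM in Lhx2 cKO. Hbb-bt, among them, was called lower at -1.01, and Hbb-y was the 1 called higher, at 0.49. Globin genes share reads with close copies, and without control 1 the number of these markers called was 2 in place of 6. For fibroblasts and meninges 6 of 12 markers were analysed, with 0 called higher and 1 lower (Col1a1, -3.001). Their summed levels were 54.8 and 53.5 CPM in control and 36.6 and 36.7 CPM in Lhx2 cKO. The lower sums rest on Col1a1, at 25.7 and 23.05 CPM in control and at 4.44 and 1.65 CPM in Lhx2 cKO. Of the 6 markers, 4 had a positive log2 fold change, and the median was 0.18. Radial glia markers had 1 of 10 called higher (Slc1a3, 0.27) and 4 lower, with the smallest p for Pax6 (-1.24). Neuron markers had 2 of 8 called higher and 2 lower. With so few genes, the fibroblast and meningeal counts and the radial glia count called higher are near the shares over all genes.

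**Figure D5:**
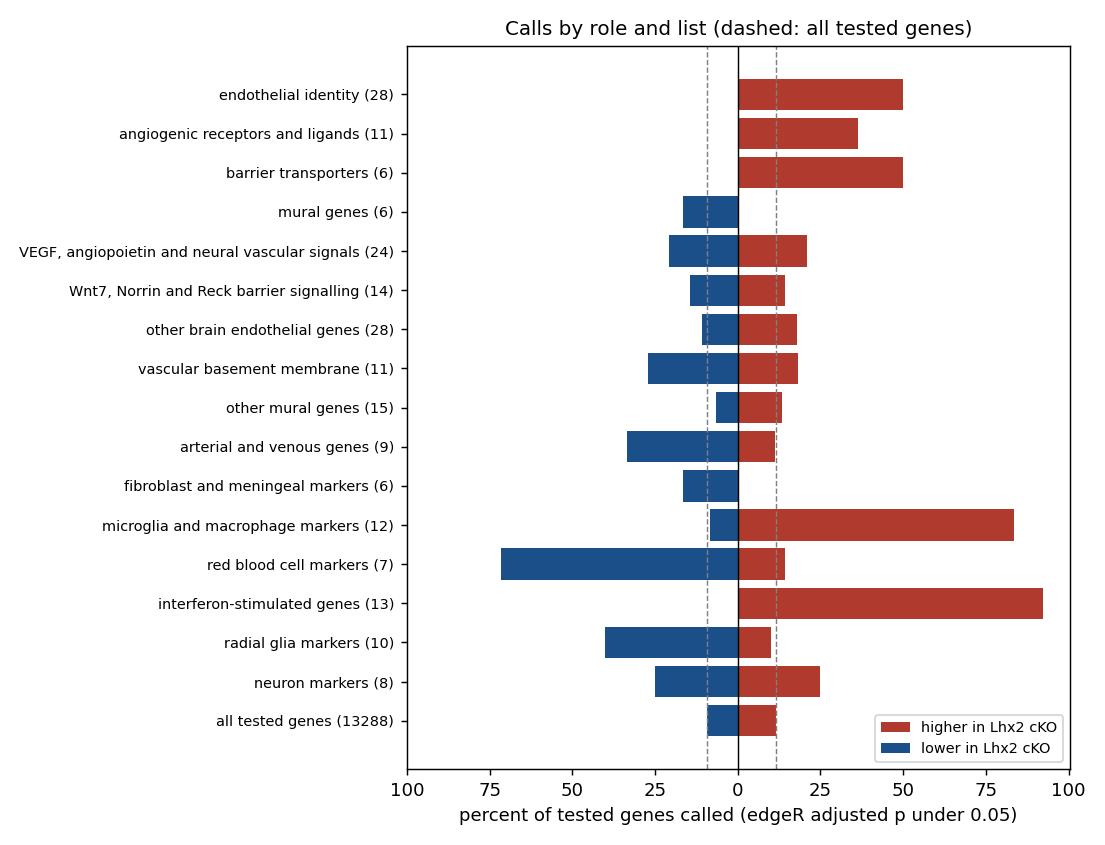
Bars give the percent of tested genes called higher (red, to the right) or lower (blue, to the left) in Lhx2 cKO, with the number tested in brackets and dashed lines at the percent over all 13288 genes. Endothelial identity genes and barrier transporters reach 50% higher against 11.6% of all genes, and the only mural call is that of Rgs5, 1 of 6 genes.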

How the data were processed

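RNA-seq was done on 4 libraries with total counts of 22294237 to 24609627. Per the submitters' processing notes, Trim Galore, Subread, featureCounts and edgeR were used with build mm39; versions, annotation and strand setting are not given in the sources used here. The authors deposited raw read counts per gene. Their table also holds the authors' log2 fold change and mean log2 CPM, p-value and adjusted p-value, the -log10 of the latter, and gene length, per the file headers.

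Counts were tested with edgeR 4.0.16 in R 4.3.3 (TMM, filterByExpr with a minimum of 10, glmQLFit, glmQLFTest, no covariates; two-sided, Benjamini-Hochberg over 13288 genes). The filter removed 1 gene. SEs are the absolute log2 fold change over the square root of F. RPKM uses the deposited length. The test was also run on counts simulated with the same relative spread for every gene, which cannot show that the calls here hold. Members and lists were chosen with earlier results of these data known. Called members are given by library, the others by counts, ranges or defining role. Each list names up to 4 called genes by smallest p, and some lists name further genes chosen after their values were seen. Exon overlaps are from GENCODE M21 (another build; names only). Counts of replicates differed by more than sampling noise, with chi-square over its degrees of freedom at 13.9 (control) and 14.3 (Lhx2 cKO). Alternatives were RLE, library totals, no filter, a mean count of 50, DESeq2 1.42.0, limma-voom (limma 3.58.1), a replicate block and each library left out.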

Additional observations from a re-analysis of the deposited data

How the results depend on the processing

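With all 4 libraries, 16 (DESeq2) to 23 (replicate block) of the 51 genes were called higher, and the same 22 genes stayed called under RLE size factors, library totals, no filter, limma-voom and the replicate block. DESeq2 lost Pecam1, Sox17, Egfl7, Ly6e and Clec14a and called 9 identity genes higher in place of 14; the cause was not tested. A minimum mean count of 50 tested 46 of the genes and moved the mural median to 0.069 by removing Cspg4b. The replicate numbers share only a number (correlation 0.003 across genes between the groups), and the replicate block called 24 genes, adding Tie1 and Adgrf5.

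Leaving out 1 library gave 9 to 21 genes called higher and 0 to 1 lower, with a median of 0.255 to 0.442. By role, 4 to 12 identity genes, 2 to 6 angiogenic genes and 3 transporters were called higher, and 0 to 1 mural genes lower. Medians ranged from 0.246 to 0.623 for angiogenic genes, 0.262 to 0.694 for transporters and -0.089 to 0.072 for mural genes. Calls numbered 6 to 10 in the list of VEGF and other vascular signals, 4 to 7 for other brain endothelial genes, 1 to 2 for other mural genes, 2 to 5 for red blood cell markers and 3 to 5 for radial glia markers.

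Sign changes were limited to 10 genes that were not called. With all libraries, Vwf went to -0.001 under RLE and DESeq2 and to -0.009 under library totals, and Notch4 to 0 under RLE and DESeq2 and to -0.008 under library totals. With 1 library left out, log2 fold changes ranged from -0.013 to 0.396 for Sox18, -0.09 to 0.801 for Nos3, -0.089 to 0.09 for Vwf, -0.138 to 0.702 for Angpt2 and -0.081 to 0.118 for Apln. They ranged from -0.082 to 0.082 for Notch4, -0.12 to 0.151 for Slc7a5, 0 to 0.119 for Pdgfrb, -0.083 to 0.442 for Kcnj8 and -0.354 to 0.026 for Abcc9. Counts as low as 23 per library limit Clec14a, Sox7, Ocln and Cspg4b.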
